A study of Mus musculus with 8 samples.

Results

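The 10 genes described here encode the subunits of Polycomb repressive complex 2 (PRC2). They were chosen by name and divided into 6 core genes (Ezh1, Ezh2, Eed, Suz12, Rbbp4 and Rbbp7) and 4 accessory genes (Jarid2, Aebp2, Mtf2 and Phf19). All 10 were among the 55487 genes of the count table, and all 10 were among the 20610 that reached 10 reads over the 8 libraries. The libraries came from long-term hematopoietic stem cells (LT-HSCs) of the mouse fetal liver at E14.5, with 500 cells in each. They comprised 3 IκBα WT, 3 IκBα HET and 2 IκBα KO samples, named here WT1 to WT3, HET1 to HET3, KO1 and KO2. HET embryos carried 1 copy and KO embryos 2 copies of the targeted Nfkbia tm1Bal knockout allele. With 2 copies, IκBα, the inhibitor of NF-κB, is removed from every cell of the embryo and not from blood alone. Parents were IκBα HET animals, some of which may also have carried the Gfi1:tomato reporter. WT1, WT2 and HET1 were male and labelled as total RNA, whereas WT3, HET2, HET3 and both KO samples were female and labelled as polyA RNA, so that sex and RNA type cannot be told apart. The labels do not say that the samples came from separate litters.

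PRC2 places methyl groups on lysine 27 of histone H3, a mark of silenced genes. EZH2 and its paralog EZH1 are the alternative catalytic subunits; EED binds the methylated product and SUZ12 holds the complex together, while RBBP4 and RBBP7 bind histones and also serve in other chromatin complexes. The accessory subunits define separate forms of the complex: MTF2 and PHF19, Polycomb-like proteins, belong to PRC2.1, and JARID2 and AEBP2 belong to PRC2.2. In blood, EZH2 is known from dividing progenitors and fetal cells, and EZH1 from quiescent cells and adult stem cells.

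The targeted gene Nfkbia held 1 read in KO1 and 0 in KO2, against 243 to 1621 in the WT and HET samples. Libraries held 17895973 to 21720972 reads in genes. The labelled cell type did not hold equally well in all of them. Of 7 LT-HSC markers, only 2 (Kit and Slamf1) stayed above 5 CPM (reads of a gene scaled to a common library size) in every library. Their summed level was 1471 CPM in WT1, 1647 in WT2 and 1471 in KO1, 885 in KO2, 463 in HET1 and 430 in HET2, but 211 in WT3 and 165 in HET3. Ly6a, which encodes the SCA1 antigen of the sorting gate, had 0 reads in HET3 and 4.42 CPM in WT3, against 58.6 to 89.5 CPM in WT1, WT2 and KO1. Hlf, a stem cell transcription factor, was at 2.59 CPM in HET3 and 14.0 CPM in WT3 against 252 CPM in WT1. Other marker lists moved too: the hepatocyte sum was highest in WT3 at 1179 CPM (55.4 to 574 elsewhere), the erythroid sum in HET1 at 8287 CPM (615 to 3054 elsewhere), and the endothelial sum ran from 2.89 CPM in HET3 to 252 CPM in WT2. Kit did not set the 2 apart in the same way, at 131 CPM in WT3 and in HET1 and 145 CPM in HET3. Cd48, whose protein the sorting gate excludes, was found in all 8 libraries. It was at 40.5 CPM in WT3, 42.7 in HET2 and 43.8 in HET3, and at 57.2 to 86.4 CPM elsewhere. Because WT3 and HET3 had the lowest LT-HSC marker sums, results are given with and without them where they rest on them.

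The promoters are shown for the 2 catalytic genes and for the other members that carried an E2F-type motif, since E2F factors control genes of the cell cycle and the proliferation genes are set beside Ezh2 below. The sequences are the RefSeq windows on GRCm38.p6 from 250 bases before the transcription start to 50 after, read 5′ to 3′ on the gene's strand, with the motif in capitals.
Ezh2, chr6:47594981-47595280, minus strand: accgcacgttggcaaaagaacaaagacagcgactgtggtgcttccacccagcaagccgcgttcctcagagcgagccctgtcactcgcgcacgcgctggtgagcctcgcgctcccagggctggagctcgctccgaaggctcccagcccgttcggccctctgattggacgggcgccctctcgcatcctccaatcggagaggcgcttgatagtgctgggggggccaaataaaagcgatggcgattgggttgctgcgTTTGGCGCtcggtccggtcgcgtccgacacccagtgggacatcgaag
Suz12, chr11:79992856-79993155, plus strand: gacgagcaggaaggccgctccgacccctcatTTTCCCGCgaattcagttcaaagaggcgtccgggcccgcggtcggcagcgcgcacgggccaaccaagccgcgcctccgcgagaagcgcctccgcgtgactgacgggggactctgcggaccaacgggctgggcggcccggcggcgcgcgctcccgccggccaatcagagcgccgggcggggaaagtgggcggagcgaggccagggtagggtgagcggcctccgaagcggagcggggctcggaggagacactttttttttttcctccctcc
Phf19, chr2:34913927-34914226, minus strand: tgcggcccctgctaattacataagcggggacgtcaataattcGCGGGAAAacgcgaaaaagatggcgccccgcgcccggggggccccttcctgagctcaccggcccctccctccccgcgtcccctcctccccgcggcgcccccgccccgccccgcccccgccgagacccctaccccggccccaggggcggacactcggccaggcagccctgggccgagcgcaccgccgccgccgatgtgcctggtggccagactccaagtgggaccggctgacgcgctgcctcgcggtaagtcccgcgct
Ezh1, chr11:101226414-101226713, minus strand: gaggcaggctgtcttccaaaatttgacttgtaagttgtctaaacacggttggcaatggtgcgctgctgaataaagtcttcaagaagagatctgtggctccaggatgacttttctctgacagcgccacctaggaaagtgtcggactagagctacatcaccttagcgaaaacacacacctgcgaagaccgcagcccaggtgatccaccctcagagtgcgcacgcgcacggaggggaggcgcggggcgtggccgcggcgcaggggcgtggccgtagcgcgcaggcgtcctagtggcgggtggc
The motif searched was TTTCCCGC, TTTCGCGC, TTTGCCGC or TTTGGCGC on both strands. It began at base 4 after the start in Ezh2, at -219 in Suz12 and at -208 in Phf19, where it lies on the opposite strand, and the Ezh1 window holds none of these letters. Windows for all 10 genes were found, 14 in total, and 3 of the 14 held the motif, against 2.265% of 32851 RefSeq promoter windows. The CCAAT box, searched as CCAAT on both strands, was in windows of 8 of the 10 genes (all but Ezh1 and Phf19), against 41.06% of all genes with a window. The NF-κB motif, of interest because the deleted gene is an NF-κB inhibitor, was matched in 4 of the 10 genes, Aebp2, Jarid2, Phf19 and Rbbp7, against 9.55% of all genes with a window. None of these matches overlapped an E2F match. A match describes the letters and not a bound site.

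Read per kilobase of exon, a scale on which different genes can be compared, the 10 transcripts covered a wide range. Rbbp7 led with a median of 331 CPM per kb (276 to 369 over the 8 libraries), followed by Rbbp4 at 53.6. Eed at 41.5, Mtf2 at 39.4, Suz12 at 27.8 and Ezh2 at 26.7 CPM per kb formed the middle of the order. The lowest levels were those of Aebp2 at 4.61, Jarid2 at 4.52, Phf19 at 3.17 and Ezh1 at 1.81 CPM per kb. The histone-binding subunits, which other complexes share, thus came first in the order. Several neighbours in this order were not separated: Eed exceeded Mtf2 in 4 of 8 libraries, Suz12 exceeded Ezh2 in 5 of 8, Aebp2 exceeded Jarid2 in 4 of 8 and Phf19 exceeded Ezh1 in 4 of 8. With the longest transcript as the length, Ezh2 took rank 4, Mtf2 rank 5 and Suz12 rank 6, and the other ranks were unchanged.

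**Figure D1:**
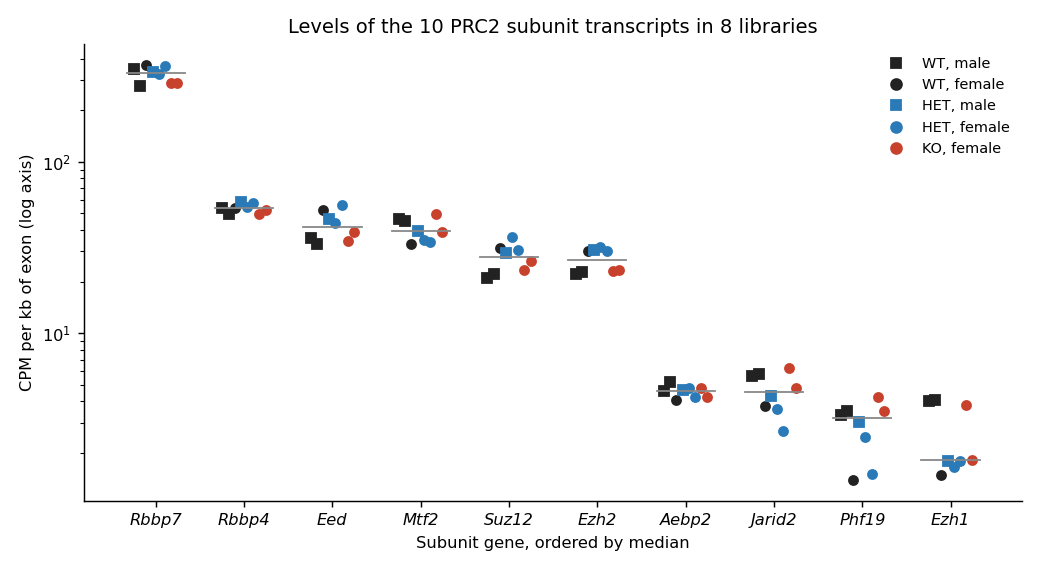
Level of each PRC2 subunit transcript in CPM per kb of exon (log axis) in the 8 libraries, with squares for male and circles for female samples, colour for genotype and a grey line at the median. Rbbp7 lies near 331 CPM per kb and Ezh1 near 1.81, and Ezh1 and Phf19 spread more widely than Rbbp4 or Aebp2.

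The genes differed in how much they varied between libraries. Rbbp4 had a coefficient of variation of 5.95% over the 8 samples, Aebp2 8.16% and Rbbp7 11.1%, while Phf19 reached 35.4% and Ezh1 45.7%. Fewer reads lay behind the last 2 genes, 127 to 438 for Phf19 and 213 to 726 for Ezh1, against 3165 to 4219 for Ezh2. Reads of some genes could be shared: 15.1% of the 50-base runs of the longest Rbbp7 transcript also occur in transcripts of Gm6382 or Txlng, 10.5% of those of Eed in E230029C05Rik and 8.68% of those of Mtf2 in Gm49301 or Tmed5, so these values are less certain. For Rbbp4, 18.1% of exon bases overlap antisense genes, and the counting strand is not given in the sources used here. Ezh1, Jarid2 and Phf19 had no such overlap.

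Ezh1 (chr11:101191115-101226463, GRCm38) was measured at 29.7 CPM in WT1, 30.3 in WT2 and 11.1 in WT3. It stood at 13.3 CPM in HET1, 12.3 in HET2 and 13.3 in HET3, and at 28.1 CPM in KO1 and 13.5 in KO2. WT1, WT2 and KO1 were therefore high and the other 5 libraries low, so that 1 sample of the WT group lay with the HET samples and the 2 KO samples did not lie together.

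Ezh2 (chr6:47530139-47595341) showed the opposite arrangement at a higher level, except in KO2, which was low in both genes. It was at 149 CPM in WT1, 151 in WT2 and 202 in WT3, at 204, 213 and 201 CPM in HET1 to HET3, and at 155 and 157 CPM in KO1 and KO2. The 4 low libraries, WT1, WT2, KO1 and KO2, stayed at or below 157 CPM, and the 4 high ones at or above 201 CPM.

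Ezh2 exceeded Ezh1 per kb in 8 of 8 libraries, by 3.49 ± 0.83 on the log2 scale (SD, n = 8; exact sign-flip permutation test, two-sided p = 0.0078, the smallest that 8 samples can give). The fold was 5.56 in WT1, 5.53 in WT2 and 6.13 in KO1, 12.8 in KO2, and 16.6 to 20.1 in WT3 and the 3 HET libraries. Without WT3 and HET3 the mean was 3.26 on the log2 scale (exact permutation p = 0.0313). The ratio therefore varied within the WT and KO groups as much as between groups. Its log2 mean was 3.15 in KO against 3.61 in WT and HET, a difference of -0.46 (exact permutation test, two-sided, p = 0.429, where 2 against 6 samples cannot go below 0.0714). That difference was 0.069 without KO1, -0.995 without KO2, and -0.17 without WT3 and HET3. With sex in a linear model, which sets KO against the 3 female WT and HET libraries, it was -1.07. HET exceeded WT by 1.04 (exact permutation p = 0.4, smallest possible 0.1), by 1.66 without WT3, by 1.70 without WT3 and HET3, and by 0.73 without WT1 or without WT2. Male libraries lay below female ones by -1.21 (exact permutation p = 0.2); adjusted over the 3 ratio tests by Benjamini-Hochberg, each p was 0.429.

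**Figure D2:**
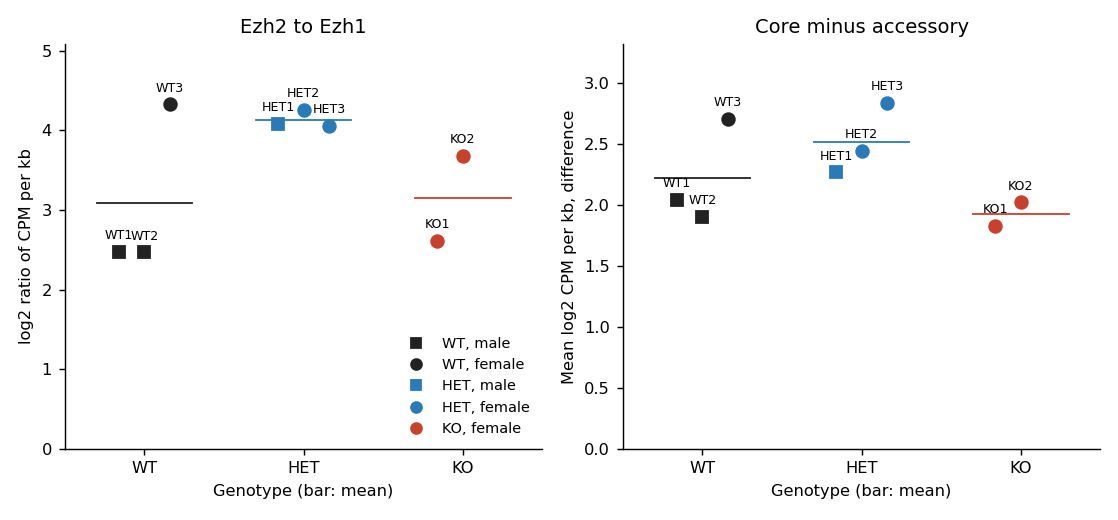
Left, log2 ratio of Ezh2 to Ezh1 in CPM per kb for each library by genotype; right, mean log2 CPM per kb of the 6 core genes minus that of the 4 accessory genes, with lines at group means, squares for male and circles for female samples. WT1, WT2 and KO1 have the lowest Ezh2 to Ezh1 ratios, and the core mean exceeds the accessory mean by 1.83 to 2.84 in all 8 libraries.

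EED and SUZ12, the partners that EZH2 needs to act as an enzyme, followed Ezh2. Eed (chr7:89954654-89980983) was at 137, 127 and 200 CPM in WT1 to WT3, 177, 169 and 213 CPM in HET1 to HET3, and 131 and 149 CPM in KO1 and KO2. Suz12 (chr11:79993106-80034123) was at 104, 109 and 156 CPM in WT1 to WT3, 144, 180 and 151 CPM in HET1 to HET3, and 116 and 130 CPM in KO1 and KO2. For both genes the 4 libraries low in Ezh2 were the 4 lowest, with a step to the other 4 from 149 to 169 CPM for Eed and from 130 to 144 CPM for Suz12. Rbbp4 (chr4:129307100-129335370) varied little, from 432 CPM in KO1 to 511 CPM in HET1, and Rbbp7 (chrX:162760402-162779092) ran from 804 CPM in WT2 to 1074 CPM in WT3, with 846 and 837 CPM in KO1 and KO2.

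The accessory genes Jarid2, Mtf2 and Phf19 each had their 3 highest levels in libraries low in Ezh2. Jarid2 (chr13:44729474-44921643), which brings PRC2.2 to chromatin, was at 54.8, 55.7 and 36.4 CPM in WT1 to WT3, 41.4, 34.9 and 26.0 CPM in HET1 to HET3, and 60.4 and 46.4 CPM in KO1 and KO2. Mtf2 (chr5:108065674-108109004), which tethers PRC2.1 to unmethylated CpG islands, was at 265, 258 and 189 CPM in WT1 to WT3, 226, 199 and 193 CPM in HET1 to HET3, and 282 and 223 CPM in KO1 and KO2. In both genes KO1, WT1 and WT2 were the highest libraries, and WT3 and HET3 were among the lowest.

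Phf19 (chr2:34893757-34914026), the other Polycomb-like subunit measured, was at 16.8, 17.8 and 6.98 CPM in WT1 to WT3, 15.2, 12.5 and 7.53 CPM in HET1 to HET3, and 21.4 and 17.7 CPM in KO1 and KO2. WT3 and HET3 alone fell below 8 CPM, and KO2, low in Ezh1, lay close to WT2. Aebp2 (chr6:140622663-140678472), the zinc finger subunit of PRC2.2, stayed between 39.9 CPM in WT3 and 51.1 CPM in WT2 and varied least of the accessory genes. In likeness to Ezh1 over the 8 libraries, Phf19 and Aebp2 had the same Pearson's r, 0.68.

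**Figure D3:**
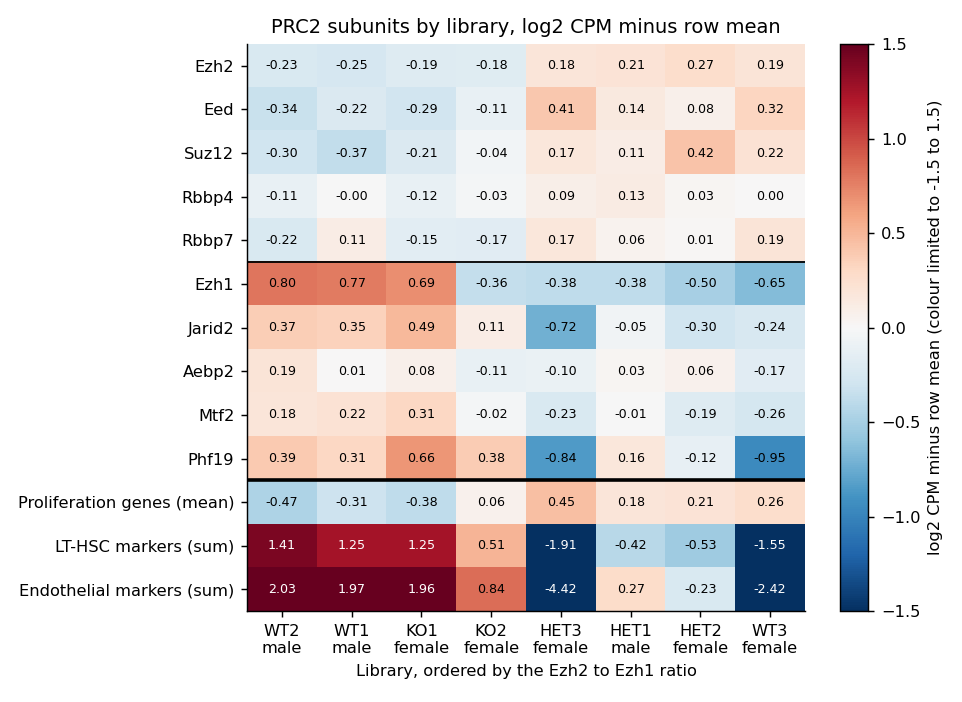
Log2 CPM of each subunit minus its mean over the 8 libraries, with libraries ordered by the Ezh2 to Ezh1 ratio; lower rows give the mean of 14 proliferation genes and the summed LT-HSC and endothelial markers. Ezh2, Eed and Suz12 are below their mean in WT2, WT1, KO1 and KO2 and above it in the other 4, and Ezh1 is above its mean only in WT2, WT1 and KO1.

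Over the 8 libraries, Pearson's r of log2 CPM between Ezh2 and Suz12 was 0.94, between Ezh2 and Eed 0.87, and between Ezh2 and Ezh1 -0.84. Between Ezh1 and Mtf2 it was 0.92, between Jarid2 and Mtf2 0.92, and between Eed and Jarid2 -0.94. These values describe 8 libraries that fall into clumps and share preparation, sex and RNA type in part, and many other genes had the same arrangement. Among 10098 genes with a mean of at least 5 CPM, Suz12 ranked 201st and Eed 1296th in likeness to Ezh2. In likeness to Ezh1, Mtf2 ranked 220th, Jarid2 1421st, Phf19 2787th and Aebp2 2816th. The genes most like Ezh2 were Snhg8 (r = 0.99), Rpa3, Mrps23, Tpm3-rs7 and Trappc10 (0.98 to 0.99), and those most like Ezh1 were 3110056K07Rik (0.99), Chmp2b, Gm5487, Fbxl20 and Enpp5 (all 0.99).

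Other measures of the libraries moved with this arrangement. The mean log2 CPM of 14 proliferation genes (replication factors, cyclins, Mki67, Top2a, Cdk1 and E2f1) was 7.86 in WT1, 7.71 in WT2 and 7.79 in KO1, 8.24 in KO2, and 8.36 to 8.63 in WT3 and the HET libraries. The LT-HSC and endothelial marker sums were highest in WT1, WT2 and KO1, and HET1 combined a high Ezh2 level with a marker sum above those of WT3 and HET3. In a bulk sample, fewer cells of a type and less RNA per cell cannot be told apart. The part of cell composition, of sex or of RNA type in the levels of the subunits was not tested.

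As a mean, the core genes exceeded the accessory genes in every library, but this did not hold gene by gene. By median, the core gene Ezh1 was the lowest of the 10, and the accessory gene Mtf2 exceeded Suz12 in 7 of 8 libraries. The mean log2 CPM per kb of the 6 core genes minus that of the 4 accessory genes was 2.22 ± 0.43 in WT (SD, n = 3), 2.52 ± 0.29 in HET (SD, n = 3) and 1.93 ± 0.14 in KO (SD, n = 2). The values were 2.04, 1.91 and 2.71 in WT1 to WT3, 2.27, 2.45 and 2.84 in HET1 to HET3, and 1.83 and 2.02 in KO1 and KO2. KO2 lay within the range of the WT samples, KO1 was the lowest of the 8 libraries, and WT3 and HET3 had the widest gaps. Without Rbbp4 and Rbbp7, which other complexes share, the mean over all 8 libraries was 1.25 in place of 2.26. No test was made on this score, since the genes were chosen with results known.

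The comparison of KO with WT and HET, with sex in the model, asked whether loss of IκBα goes with another PRC2 composition. In edgeR's quasi-likelihood test a call required an adjusted p below 0.05 and a log2 fold change beyond 1 in either direction. No member met this, and 0% of the 20610 genes tested did. The lowest adjusted p of any gene, 0.0862, was that of the deleted Nfkbia itself, so that with 2 KO samples the edgeR test did not call even that gene. Both KO samples are female, and with sex in the model the fitted value is in effect KO against the 3 female references WT3, HET2 and HET3, 2 of which are the libraries with the lowest LT-HSC markers. The fitted difference was negative for 5 of the 6 core genes and positive for all 4 accessory genes, although that of Aebp2 was near 0 and took either sign under the alternatives. Median log2 fold changes were -0.34 for core and 0.55 for accessory genes, beside 0.13 for all genes tested.

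Among the core genes, Eed had a log2 fold change of -0.47 (SE 0.19, edgeR adjusted p = 0.180), where the means were 140 CPM in KO, 194 CPM in the 3 female references and 171 CPM in all 6. Ezh2 had -0.40 (SE 0.17, edgeR adjusted p = 0.197), with means of 156, 205 and 186 CPM in the same order. Suz12 gave -0.40 (edgeR adjusted p = 0.219), Rbbp7 -0.29 (0.298) and Rbbp4 -0.11 (0.644). The sign of Ezh1 was the reverse of that of Ezh2, at 0.76 (SE 0.42, edgeR adjusted p = 0.273). Its value rested on 1 library, being 0.14 without KO1 and 1.20 without KO2. Eed and Ezh2 are the 2 members with an unadjusted p under 0.05 and a lower KO level, a rule met by 9.48% of all genes.

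Among the accessory genes, Phf19 had the largest fitted difference, 1.12 (SE 0.31, edgeR adjusted p = 0.148), where the level was 19.5 ± 2.67 CPM in KO (SD, n = 2), 8.99 ± 3.02 CPM in the female references (SD, n = 3) and 12.8 ± 4.64 CPM in all 6 (SD, n = 6). Jarid2 had 0.72 (SE 0.23, edgeR adjusted p = 0.152) and Mtf2 0.38 (SE 0.16, edgeR adjusted p = 0.180). Aebp2 had 0.05 (edgeR adjusted p = 0.874). These 3 members, Phf19, Jarid2 and Mtf2, met an unadjusted p under 0.05 with a higher KO level, which 15.7% of all genes did. Phf19 passed both thresholds in DESeq2 without shrinkage (log2 fold change 1.09, adjusted p = 0.0182), where 7.29% of genes were called higher in KO. With apeglm shrinkage, where 7.1% of genes were called, no member was. Without HET2, edgeR also called Phf19 (1.44, adjusted p = 0.0424) among 3.49% of genes called higher, but the female references are then WT3 and HET3 alone. Without WT3 and HET3 it had 0.62 (edgeR adjusted p = 0.683), with HET2 as the only female reference. With no sex term, which sets KO against all 6 libraries, the values were 0.61 for Phf19, 0.36 for Jarid2, 0.19 for Mtf2, 0.18 for Ezh1, -0.26 for Ezh2, -0.28 for Eed and -0.19 for Suz12 (edgeR adjusted p = 0.978 for each). Mtf2 was 0.20 without KO1.

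**Figure D4:**
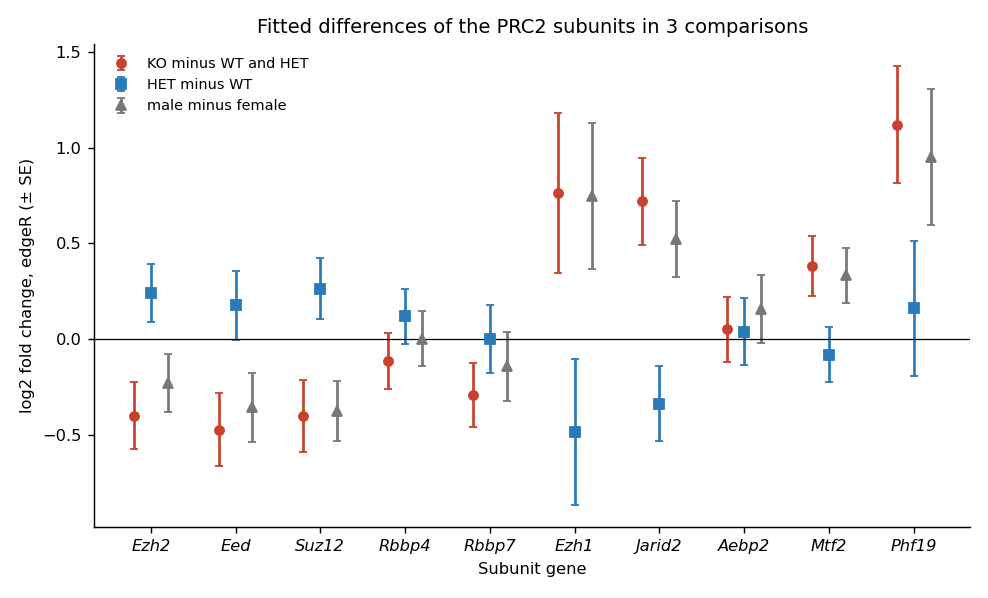
Fitted log2 fold change of each subunit with its standard error in edgeR, for KO against WT and HET (circles), HET against WT (squares) and male against female WT and HET samples (triangles). Phf19 has the largest fitted difference in KO, 1.12, and in male libraries, 0.95; the comparisons share the WT and HET samples.

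For none of the 10 genes were both KO samples above all 6 WT and HET libraries, as for 3.05% of all genes. None had both below all 6 either, as for 1.79% of all genes. KO1 alone lay above all 6 for Phf19, Jarid2 and Mtf2, and just below them for Rbbp4. Exact permutation p-values of the log2 CPM differences ran from 0.143 to 1, and 2 against 6 samples cannot go below 0.0714. Against the 3 female WT and HET samples alone, both KO samples were above for Ezh1, Jarid2, Mtf2 and Phf19, as for 27.1% of all genes, and below for Ezh2, Eed, Suz12, Rbbp4 and Rbbp7, as for 21.4% of all genes. Those 3 female samples include WT3 and HET3, in which the LT-HSC markers were lowest. The 2 male WT libraries had LT-HSC marker sums near that of KO1, while that of KO2 was lower, at 885 CPM. These WT libraries also differed from the KO samples in sex and RNA type. Set beside them, the KO mean differed on the log2 CPM scale by 0.06 for Ezh2, 0.08 for Eed and 0.21 for Suz12. It differed by -0.06 for Jarid2, -0.06 for Mtf2, 0.17 for Phf19 and -0.62 for Ezh1.

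HET and WT, pooled as the reference above, were compared next. No member was called in edgeR, where 0% of genes were, and none had an unadjusted p under 0.05, which 3.62% of genes had (edgeR adjusted p at least 0.932 for all 10). The largest fitted differences were -0.48 for Ezh1, -0.33 for Jarid2 and 0.26 for Suz12. All 3 HET libraries were above all 3 WT libraries for Rbbp4 (478 to 511 against 434 to 469 CPM, exact permutation p = 0.1, the smallest possible), as for 4.2% of all genes, and no member was below in all 3, as 4.85% of genes were. Without WT3 and HET3, Ezh1 was called lower in HET at -1.17 (edgeR adjusted p = 0.0129), as were 6.27% of all genes. HET2 is then the only female sample, so this value sets HET1 against WT1 and WT2. HET1 had 13.3 CPM of Ezh1 and the highest erythroid marker sum.

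The male and female WT and HET libraries, which also differed in labelled RNA type, showed no called member, against 0.0146% of genes. Phf19 was 0.95 higher in male libraries on the log2 scale (SE 0.35, edgeR adjusted p = 0.196) and Jarid2 0.52 higher (SE 0.20, edgeR adjusted p = 0.196). They were the members with an unadjusted p under 0.05 and a higher male level, a rule met by 10.7% of genes, and no member met it with a lower male level, as 12% of genes did. All 3 male libraries lay above all 3 female ones for Ezh1, Jarid2, Mtf2 and Phf19, as for 21.1% of genes, and below them for Suz12, as for 17.5%. For Ezh1 the separation rested on HET1 and HET3, which had nearly equal levels (both 13.3 CPM), and its fitted difference of 0.75 was 0.057 without WT3. Without WT3 and HET3 the Phf19 difference was 0.28, which sets HET1 against HET2 alone. Without HET2 it was called at 1.18 (edgeR adjusted p = 0.0273), with WT3 and HET3 as the only female samples. Then 2998 of the 20610 genes were called in either direction.

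A further 10 genes of the pathway were measured: the accessory subunits Phf1, Epop, Lcor and Lcorl, the H3K27 demethylases Kdm6a and Kdm6b, and Bap1 with Asxl1, Asxl2 and Asxl3, which remove ubiquitin from histone H2A. All 10 passed the read minimum and none was called in any of the 3 comparisons in edgeR. DESeq2 called Lcor higher in male libraries (1.07, adjusted p = 0.00189), among 1838 of the 20610 genes called in either direction. In KO, 8 of the 10 had a positive fitted difference (median 0.36), and Lcor (0.97, edgeR adjusted p = 0.148) and Kdm6b (0.78, edgeR adjusted p = 0.198) had an unadjusted p under 0.05, beside 15.7% of all genes. Lcor, whose locus encodes the PRC2.1 subunit PALI1, was at 27.4 and 21.8 CPM in KO1 and KO2, within the 11.4 to 30.2 CPM of WT and HET, with the low values in WT3 and HET3. Male libraries also had more Lcor (1.09, edgeR adjusted p = 0.176) and Kdm6b (0.92, edgeR adjusted p = 0.220) than female ones, and less Kdm6a (-0.42, edgeR adjusted p = 0.213). Kdm6a, an X-linked gene that escapes X inactivation, reached 53.2 and 58.4 CPM in the KO libraries. This was above the 42.9 to 48.1 CPM of the female and the 33.6 to 37.5 CPM of the male WT and HET libraries (exact permutation p = 0.0714, the smallest possible). That test pools male with female references while the KO samples are all female, so that its p mixes sex with genotype. With sex in the model, Kdm6a was 0.28 higher in KO (edgeR adjusted p = 0.296). Asxl3, named after its values were seen, also lay above all 6, at 2.25 and 2.26 CPM against 0.119 to 1.96 CPM. Asxl3 had 46 reads in KO1 and 46 in KO2 against 47 in WT2, so that its place above WT2 rests on library scaling. Of all genes, 3.05% lay above all 6. The 2 of 10 here cannot be set against that share, since Asxl3 was chosen with its values known. Of the 14 proliferation genes, 13 had a negative fitted difference in KO (median -0.36), with an unadjusted p under 0.05 for Pcna, Ccna2 and Ccne1, beside 9.48% of all genes. With sex in the model, this in effect set KO against the female references. Beside the 2 male WT libraries, which differ from KO in sex and RNA type, KO was instead higher in log2 CPM for every listed gene but Mcm6 (-0.11). The values were 0.15 for Pcna, 0.35 for Ccna2 and 0.28 for Ccne1, and as low as 0.002 for E2f1. None of the 14 was called in edgeR, and for none were both KO samples above or both below all 6 WT and HET samples. DESeq2 called Ccne1 (-1.48, adjusted p = 0.0493), among 1825 of the 20610 genes called in either direction. With apeglm it had -1.02, where 7.1% of genes were called.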

How the data were processed

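RNA-seq was made from 500 sorted LT-HSCs (LSK CD150+ CD48-) per sample. Per the labels and the methods, the authors trimmed 50-bp single-end reads with Trim Galore 0.6.6, aligned them to GRCm38 with STAR 2.7.8 and deposited whole-number counts of reads per gene, and they deposited a log2 table made with DESeq2 1.38.3 and corrected for sex. The counts were used for every test, and the deposited log2 values for 1 alternative. Replicates were not pooled, and a further KO sample was discarded per the methods.

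Genes were named through GENCODE M21 (55227 of 55487 matched; 20588 of 20610 tested). Genes with at least 10 reads over the 8 samples were tested with edgeR 4.0.16 (R 4.3.3), by TMM scaling and a quasi-likelihood test on sex and genotype, adjusted by Benjamini-Hochberg over all genes tested; a gene was called at an adjusted p below 0.05 and a log2 fold change beyond 1 either way. DESeq2 1.42.0 and apeglm 1.24.0 were alternatives. CPM values are TMM-scaled, marker sums use library size alone, log2 CPM has a prior count of 2, and CPM per kb divides by the union of exons. Library totals differ little, and 3 reads correspond to 0.138 to 0.168 CPM; this floor covers counting error only. Single values were compared with exact permutation tests (scipy), two-sided. P-values measure the spread between these samples, which may be technical.

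WT and HET samples of the same number deviated together (correlations 0.654, 0.488 and 0.770), so that the numbers may pair them. However, WT2 with HET1 gave 0.691 and WT1 with HET2 0.413. WT1 and HET1 share sex and RNA type, as do WT3 and HET3, which also had the lowest LT-HSC marker sums. Pairing cannot be told apart from these. KO2 gave -0.604 with WT2 and -0.337 with HET2, and KO1 gave 0.604 and 0.337. With 2 KO samples the deviations mirror each other, so these signs cannot decide on pairing. No 2 samples of the same genotype agreed within sampling noise. The fit was tested on simulated data. All 10 members, the pathway genes and the proliferation genes were named by lists, and the 5 genes most like Ezh2 and Ezh1 by Pearson's r. The members and lists were chosen with earlier results of these data known. Leaving out WT3 and HET3 together was added after seeing the data.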

Additional observations from a re-analysis of the deposited data

How the results depend on the processing

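With 2 KO samples, both female, KO is set against 3 female references once sex is in the model, and sex cannot be told apart from RNA type. Numbers of genes called depended on the tool. For KO against WT and HET, 0 genes were called in edgeR (5196 had an unadjusted p under 0.05), 1825 in DESeq2, 1463 with apeglm, 1 in the version 4 form of edgeR, 1106 with no filter and 661 with WT alone as the reference; leaving out 1 sample gave 0 to 730, with 8 without HET1 and 730 without HET2. For HET against WT the 0 calls (747 at an unadjusted p under 0.05) became 64 in DESeq2, 16 with apeglm, 131 with no filter and 1964 without WT3 and HET3, and 0 to 135 with 1 sample left out, 135 being without HET2. For male against female the 3 calls became 1838, 1172, 5, 2154 with no filter, 0 with at least 10 reads in every sample, 0 with the replicate block and 46 without WT3 and HET3, and 1 to 2998 with 1 sample left out (1482 without HET1, 2998 without HET2, 1 without WT1 or WT2). The replicate block left the KO and HET calls at 0 and called no member. The cause of these differences was not tested.

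The Ezh2 to Ezh1 ratio in KO against WT and HET ran from -0.995 to 0.0689 with 1 sample left out, turning sign without KO1, and was -1.07 with sex in a linear model, -1.07 in female samples only and -1.11 with a replicate block beside sex. The core minus accessory value of 2.26 became 1.25 without Rbbp4 and Rbbp7. Aebp2 in KO turned to -0.0223 with no sex term, -0.0638 with the replicate block and -0.105 without WT3 and HET3, and ran from -0.0419 to 0.140 with 1 sample left out. In HET, Rbbp7 turned to -0.0136 in DESeq2 and with RLE scaling, -0.00087 with apeglm, -0.0308 with at least 10 reads in every sample and -0.0361 with the replicate block; Aebp2 turned to -0.0185 with no sex term and -0.0714 without WT3 and HET3; Phf19 turned to -0.241 with no sex term, -0.0213 with the replicate block and -0.189 without WT3 and HET3. With 1 sample left out, HET differences ran from -0.103 to 0.104 for Rbbp7, -0.0712 to 0.146 for Aebp2, -0.189 to 0.515 for Phf19, -1.17 to 0.204 for Ezh1, -0.0737 to 0.423 for Eed and -0.211 to 0.0473 for Mtf2. In male against female, Rbbp4 turned to -0.0201 in DESeq2 and with RLE scaling, -0.0179 with apeglm, -0.0348 with no genotype term and -0.0324 with the replicate block, and ran from -0.113 to 0.0638 with 1 sample left out; without WT3 and HET3, Eed turned to 0.0661, Rbbp7 to 0.0426 and Aebp2 to -0.0305. Other member values kept their sign under every alternative run, but with no sex term the KO values shrank to 0.18 for Ezh1, 0.36 for Jarid2, 0.61 for Phf19, 0.19 for Mtf2, -0.19 for Suz12, -0.26 for Ezh2 and -0.28 for Eed.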
